A study of Mus musculus with 2 samples.

Results

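The proteasome genes of the mouse embryonic heart were chosen by symbol: every protein-coding gene whose GENCODE symbol begins with Psm, a letter from a to g and a digit. This rule found 50 genes among the 43346 mouse genes of the deposited gene tables, of which 21474 were protein-coding. The samples were hearts of mouse embryos of strain B6NCrl at embryonic day 11.5, with male and female embryos pooled, and total RNA was sequenced in 2 libraries of a single group. Replicate 1 was made from a pool of 109 embryos, the labels give no such number for replicate 2, and both biosamples carry the same donor identifier. Each library started from 10 ng of RNA extracted with a mirVana kit, with spike-in RNAs added. No mutation, transgene or treatment is named for either library, and the design holds no comparison of conditions. An exact two-sided test over 2 libraries cannot go below p = 0.5, so levels are given per library and as mean ± SD (n = 2), and the SD measures only the spread between these pools.

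The proteasome is the protease that degrades ubiquitin-tagged proteins in the cytosol and nucleus. Its barrel-shaped core particle is built from outer rings of alpha subunits, encoded by Psma genes, and inner rings of beta subunits, encoded by Psmb genes, of which Psmb5, Psmb6 and Psmb7 carry the proteolytic sites. A regulatory particle of ATPases (Psmc genes) and non-ATPase subunits (most Psmd genes) recognises, unfolds and feeds in the substrate. Interferon gamma induces alternative catalytic subunits, Psmb8, Psmb9 and Psmb10, which replace the constitutive ones during assembly to form the immunoproteasome, and cells of the immune system express them constantly. In heart muscle the proteasome takes part in the turnover of contractile proteins and in protein quality control.

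Expected counts, the estimated reads per gene, came to 37617442 for replicate 1 and 27642765 for replicate 2, and mouse genes took up 34447169 and 25261719 of them. Levels below are in TPM, a measure of transcript abundance that corrects for transcript length. The labelled tissue was checked against marker genes. All 5 cardiomyocyte markers (Actc1, Myl7, Myl2, Tnnt2 and Nkx2-5) reached 1 TPM in both libraries, with summed levels of 22677 and 23762 TPM. All 5 endothelial markers (summed 182 and 221 TPM) and all 4 erythroid markers (summed 38832 and 32310 TPM) also reached that level. Of the macrophage markers 4 of 5 did (summed 26.1 and 23.8 TPM), against 0 of 9 leukocyte and lymphocyte markers (summed 1.64 and 2.09 TPM), among which Cd3e and H2-Aa had 0 counts.

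As a group, the proteasome genes were among the abundant messages of the embryonic heart. Of the 50 members, 46 reached 1 TPM in both libraries and 31 reached 100 TPM in both, against 12118 and 1156 of the 21474 protein-coding genes. The median member stood at 151 TPM in replicate 1 and 148 TPM in replicate 2, and the median protein-coding gene at 2.94 and 2.91 TPM. Together the members held 0.736% of all TPM in replicate 1 and 0.759% in replicate 2 (0.747% ± 0.0167, SD, n = 2). The 4 members below 1 TPM in at least 1 library were the immune subunits Psmb8 and Psmb9, the thymus subunit Psmb11 and Psme2b, a paralog of the activator gene Psme2.

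**Figure D1:**
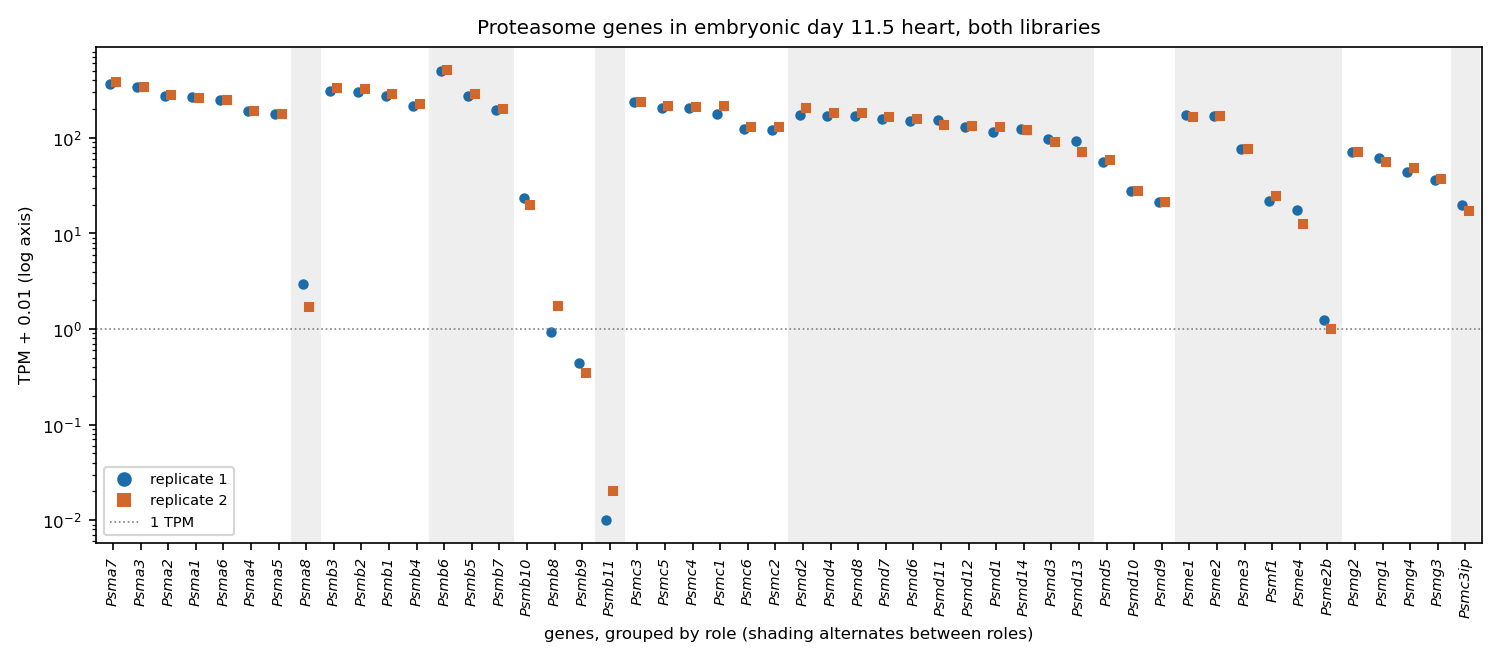
TPM of the 50 members on a log axis with 0.01 added, grouped by role, with 1 point per library (circles, replicate 1, and squares, replicate 2) and a dotted line at 1 TPM. The constitutive core and regulatory particle subunits form a band near or above 100 TPM, while Psma8, Psmb8, Psmb9, Psmb11 and Psme2b lie 1 to several orders of magnitude lower.

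The 14 constitutive core subunits were expressed at similar, though not equal, levels. Their median was 274 TPM in replicate 1 and 286 TPM in replicate 2 (280 ± 8.79 TPM, n = 2). The lowest was the alpha subunit Psma5, at 178 and 179 TPM, and the highest was Psmb6, which carries the caspase-like site, at 504 and 519 TPM. The whole core thus spanned 2.86-fold. Each of these subunits is present in equal number in the assembled particle. The SD of log2 TPM over the 14 genes was 0.41 ± 0.01 (n = 2), close to the 0.43 over the 17 regulatory particle subunits. It was 0.86 over the 77 mitochondrial ribosomal protein genes and 2.04 over the 12118 protein-coding genes at 1 TPM or more. These spreads describe lists of different kinds and were not tested against each other.

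Within the alpha ring, Psma7 was the highest, at 366 and 386 TPM, followed by Psma3 at 341 and 338 TPM. Psma2 stood at 275 and 282 TPM, Psma1 at 265 and 259 TPM, and Psma6 at 247 and 252 TPM. Psma4 was measured at 189 and 192 TPM, just above Psma5. The ring as a whole covered 2.11-fold, and the order of its 7 genes was the same in both libraries. Psma8, the alpha subunit that replaces Psma7 in the testis during meiosis, was read at 2.92 TPM (133 counts) in replicate 1 and 1.71 TPM (55 counts) in replicate 2. Psma7 was therefore 168-fold higher than Psma8 on the TPM scale (log2 ratio 7.40 ± 0.60, n = 2). Among 4 germ cell markers (Ddx4, Sycp3, Dmc1 and Hormad1), 0 reached 1 TPM in both libraries, against 12118 of 21474 protein-coding genes. Dmc1 lay at this limit, with 0.99 and 1.14 TPM, and Ddx4 just below it, with 0.90 and 0.87 TPM. Sycp3 had a mean of 0.27 TPM and Hormad1 one of 0.24 TPM. The part of germ cells in the Psma8 level was not tested.

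Among the beta subunits without a proteolytic site, Psmb3 had 306 and 330.2 TPM, Psmb2 had 302 and 321 TPM, and Psmb1 had 276 and 291 TPM. Psmb4, which helps to hold the half-particles together during assembly, was lower, at 213 and 224 TPM. These 4 genes lay within 1.46-fold. Ranked together, 11 of the 14 core genes held the same rank in both libraries. The other 3, Psmb1, Psma2 and Psmb5, exchanged neighbouring ranks, with a largest shift of 2 places, and their levels did not differ beyond the spread between the libraries.

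The catalytic subunits separated into abundant constitutive and scarce immune forms. Psmb5 (ENSMUSG00000022193.6, GRCm38 chr14:54614119-54618022, minus strand), the chymotrypsin-like subunit, had 273 TPM in replicate 1 and 291 TPM in replicate 2. Psmb6 (ENSMUSG00000018286.6, chr11:70525367-70527858, plus strand) had 504 and 519 TPM, which placed it above 99.0% of protein-coding genes. Psmb7 (ENSMUSG00000026750.5, chr2:38588036-38644087, minus strand), the trypsin-like subunit, had 194 and 200.2 TPM. The 3 constitutive sites were thus not level with each other. Psmb6 exceeded Psmb7 2.60-fold in replicate 1 and 2.59-fold in replicate 2, and Psmb5 1.84-fold and 1.78-fold.

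Of the immune subunits only Psmb10 reached 1 TPM in both libraries. Psmb8 (ENSMUSG00000024338.10, chr17:34197721-34201454, plus strand), the counterpart of Psmb5, had 0.92 TPM in replicate 1 and 1.72 TPM in replicate 2, from 30 and 31 counts. Psmb9 (ENSMUSG00000096727.1, chr17:34181987-34187764, minus strand), the counterpart of Psmb6, had 0.43 and 0.34 TPM, from 6 and 5.17 counts. Psmb10 (ENSMUSG00000031897.8, chr8:105935735-105938444, minus strand), the counterpart of Psmb7, had 23.6 and 19.7 TPM, from 789 and 464 counts. It lay above 76.8% of protein-coding genes, Psmb8 above 44.3% and Psmb9 above 36.5%. Psmb10 supplied 94.6% of the summed TPM of the immune subunits in replicate 1 and 90.5% in replicate 2, and it exceeded Psmb9 by 54.9-fold and 57.9-fold.

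Each constitutive subunit exceeded its immune counterpart in both libraries, by margins that differed widely between the pairs. The log2 TPM ratio of Psmb5 to Psmb8 was 8.21 in replicate 1 and 7.40 in replicate 2 (7.81 ± 0.57, 224-fold). For Psmb6 over Psmb9 the ratio was 10.19 and 10.58 (10.38 ± 0.27, 1337-fold), and for Psmb7 over Psmb10 it was 3.04 and 3.35 (3.19 ± 0.22, 9.13-fold). The last pair lay closest together, and its 2 values did not overlap those of the other pairs. The immune forms made up 2.51% and 2.11% of the summed TPM of the 6 catalytic genes (2.31% ± 0.283, n = 2). Within pairs they made up 10.9% and 8.95% for Psmb10, 0.336% and 0.588% for Psmb8, and 0.0853% and 0.0655% for Psmb9. Fewer cells expressing a subunit and less of its RNA per cell cannot be told apart in bulk tissue.

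The depth limits the smallest of these levels. By exact Poisson intervals at 95%, which cover counting error only, the 30 counts of Psmb8 in replicate 1 allow 0.588 to 1.24 CPM (counts scaled to the library's sum over mouse genes), and the 31 counts in replicate 2 allow 0.834 to 1.74 CPM. For Psmb9 the intervals ran from 0.0639 to 0.379 CPM and from 0.0643 to 0.462 CPM. Before any length correction Psmb8 stood at 0.871 and 1.23 CPM, and its transcript-weighted length in the tables was 1238 bases in replicate 1 and 995 bases in replicate 2. With 1 added to each TPM, the log2 ratios of the first and second pairs fell to 6.95 and 8.53. With the posterior mean TPM of the same tables, the Psmb6 to Psmb9 ratio was 9.35.

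**Figure D2:**
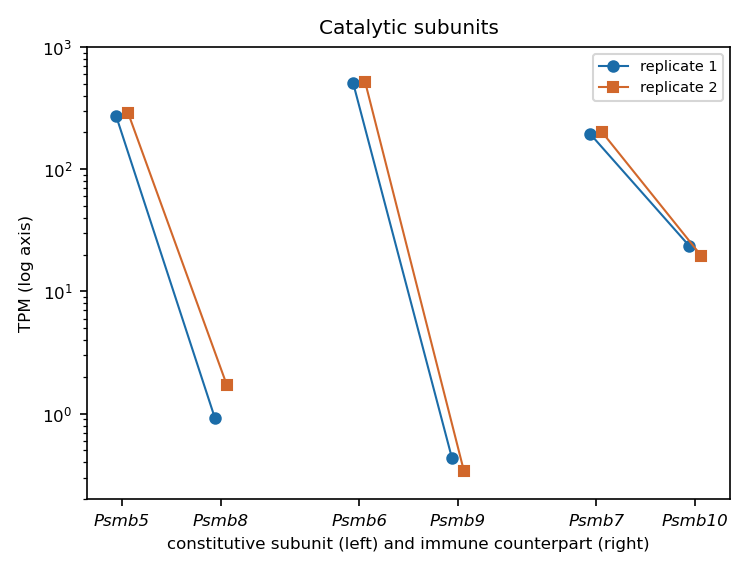
TPM on a log axis of each constitutive catalytic subunit (left of each pair) and its immune counterpart (right), with 1 line per library. The lines for Psmb7 and Psmb10 drop about 1 order of magnitude in both libraries, from 194 and 200.2 to 23.6 and 19.7 TPM, and those of the other pairs drop further.

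Sequences before the RefSeq starts of the catalytic genes are shown to set the constitutive and immune forms side by side, as both are read from the same tissue at very different levels. Each sequence is the 250 bases before the start given by RefSeq (GRCm38.p6), written 5′ to 3′ on the gene's strand: Psmb5 at chr14:54617996-54618245 (minus), Psmb8 at chr17:34197945-34198194 (plus), Psmb6 at chr11:70525107-70525356 (plus), Psmb9 at chr17:34187331-34187580 (minus) and Psmb10 at chr8:105938393-105938642 (minus). The RefSeq start used here can lie inside the gene span of GENCODE given above, which takes in the outermost annotated transcript. All 250 bases of the Psmb8 and Psmb9 windows lie within those spans, as do 27 bases of the Psmb5 window, 52 of the Psmb10 window and 0 of the Psmb6 window. The promoter table used here had no entry for Psmb7. Capitals mark matches, on either strand, to 6 short motifs: the antioxidant response element bound by NRF-family factors (TGACNNNGC), the box CCAAT, the GC box (written GGGCGG), the TATA box in the form TATAAA, the site of STAT factors (TTCNNNGAA) and an interferon response element (GAAANNGAA).
Psmb5: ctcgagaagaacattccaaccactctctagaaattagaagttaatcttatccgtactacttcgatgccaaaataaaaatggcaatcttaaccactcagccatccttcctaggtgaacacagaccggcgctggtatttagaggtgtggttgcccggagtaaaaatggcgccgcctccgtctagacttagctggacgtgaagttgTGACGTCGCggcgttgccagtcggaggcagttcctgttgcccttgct
Psmb8: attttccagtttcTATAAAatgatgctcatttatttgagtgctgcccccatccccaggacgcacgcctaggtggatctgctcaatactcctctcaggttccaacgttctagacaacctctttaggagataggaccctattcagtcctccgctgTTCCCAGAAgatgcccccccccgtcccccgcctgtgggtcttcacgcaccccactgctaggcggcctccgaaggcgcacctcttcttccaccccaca
Psmb6: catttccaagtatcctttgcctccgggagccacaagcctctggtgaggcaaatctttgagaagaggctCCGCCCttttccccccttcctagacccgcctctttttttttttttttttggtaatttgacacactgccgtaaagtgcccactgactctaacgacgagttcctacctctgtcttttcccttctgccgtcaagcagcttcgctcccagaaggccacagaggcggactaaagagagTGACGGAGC
Psmb9: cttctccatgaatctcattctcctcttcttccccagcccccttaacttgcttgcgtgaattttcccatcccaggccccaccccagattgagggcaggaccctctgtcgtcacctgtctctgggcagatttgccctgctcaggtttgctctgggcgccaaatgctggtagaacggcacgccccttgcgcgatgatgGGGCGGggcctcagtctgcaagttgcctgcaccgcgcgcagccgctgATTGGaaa
Psmb10: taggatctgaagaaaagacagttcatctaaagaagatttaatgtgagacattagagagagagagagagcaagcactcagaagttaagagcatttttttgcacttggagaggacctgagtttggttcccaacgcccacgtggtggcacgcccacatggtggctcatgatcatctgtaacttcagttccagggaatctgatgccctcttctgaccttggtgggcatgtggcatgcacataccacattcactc

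Of the constitutive catalytic genes, Psmb7 had no window. The windows of Psmb5 and Psmb6 held the antioxidant response motif, which was in 10.2% of all 32851 windows of the same length. In Psmb5 it read TGACGTCGC, 47 to 39 bases before the start, and in Psmb6 it read TGACGGAGC and ended at the base before the start. Psmb6 also had a GC box on the opposite strand, 182 to 177 bases before the start. Psmb8 held a TATAAA match 237 to 232 bases before its RefSeq start and the STAT pattern as TTCCCAGAA at 97 to 89 bases. Psmb9 held a GC box at 55 to 50 bases and a CCAAT box on the opposite strand at 8 to 4 bases. The matches of Psmb8 and Psmb9 thus fall inside the GENCODE gene spans, downstream of the outermost annotated start. Psmb10, the best expressed immune subunit, had no match to any of the 6 motifs in this window. These matches are descriptions of letters in a short window, and no binding was measured.

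Over all members, 42 of 50 matched the promoter table, with 45 windows. The antioxidant response motif was in 5 of 45 windows (11.1%), those of Psmb5, Psmb6, Psmc6, Psmd9 and Psmd12, against 10.2% of all 32851 windows of the same length. A CCAAT match was in 33.3% of member windows and 33.8% of all windows. The GC box was in 23 member windows (51.1%) against 32.7% of all windows, and the members' median GC content was 57.6% against 52.4%. TATAAA was in 8.89% against 12.4%, the STAT pattern in 4.44% (Psmb8 and Psmg1) against 7.02%, and the interferon response pattern in 6.67% (Psmb3, Psmd4 and Psmd9) against 7.13%. None of these shares was tested.

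The immune subunit genes Psmb8 and Psmb9 lie in the class II region of the major histocompatibility complex, next to the genes of the peptide transporter that carries proteasome products into the endoplasmic reticulum. The annotated Psmb9 gene overlaps Tap1 by 212 bases on the opposite strand, Psmb8 starts 495 bases beyond Tap1, and Tap2 follows 2072 bases beyond Psmb8. These neighbours were scarce as well. Tap1 had 0.46 TPM in replicate 1 and 0.64 TPM in replicate 2, and Tap2 had 0.30 and 1.00 TPM. The strand setting of the counting is not given in the sources used here, so reads from the overlap of Psmb9 and Tap1 cannot be assigned to one of them, and 24 of the 50 members overlap some other annotated gene.

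Other genes of the class I antigen presentation pathway differed widely in level. Of 12 genes listed, 9 reached 1 TPM in both libraries, against 12118 of 21474 protein-coding genes. The median of all 12 was 12.3 ± 0.0106 TPM. That of all protein-coding genes was 2.94 TPM in replicate 1 and 2.91 TPM in replicate 2, and that of the protein-coding genes at 1 TPM or more was 15.9 TPM. The chaperone Calr was the highest, at 604 and 659.9 TPM, and B2m, the light chain of class I molecules, had 165 and 178 TPM. The lowest was Nlrc5, the transactivator of class I genes, with 0 TPM in replicate 1 and 0.10 TPM in replicate 2. Of 17 interferon signalling genes, 13 reached 1 TPM in both libraries, with a median of 6.62 ± 0.191 TPM over the 17. The receptor chain Ifngr2 was the highest, at 53.3 and 67.9 TPM, and the transcription factor Irf1 had 6.48 and 6.26 TPM. The ligand genes were at the floor, with 1 count in replicate 1 and 0 in replicate 2 for Ifng and 0 counts in both for Ifnb1. A count of 0 allows up to 3 counts, which is 0.0871 CPM in replicate 1 and 0.119 CPM in replicate 2.

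Psmb11, the beta subunit of the thymoproteasome of cortical thymic epithelium, had 0 counts in replicate 1 and 1 count in replicate 2, although it lies only 3410 bases from Psmb5 on the opposite strand. Foxn1, the defining transcription factor of thymic epithelium, had 0.21 and 0.05 TPM, and the chemokine gene Ccl25 had 6.63 and 6.01 TPM.

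The regulatory particle had lower medians than the core, although the groups overlapped, since Psmc3, Psmc4 and Psmc5 were above the core subunits Psmb7, Psma4 and Psma5. The 6 ATPases of the base, Psmc1 to Psmc6, form the ring that unfolds substrates. Their median was 191 TPM in replicate 1 and 211 TPM in replicate 2 (201 ± 14.5 TPM). Psmc3 was the highest, at 237 and 239 TPM, and Psmc2 the lowest, at 122 and 130.4 TPM, a span of 1.89-fold. Psmc1 (178 and 213 TPM), Psmc4 (203 and 209.6 TPM) and Psmc5 (206 and 217 TPM) lay near Psmc3, and Psmc6 (125 and 131 TPM) lay near Psmc2.

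The 11 non-ATPase subunits had a median of 149 and 137 TPM (143 ± 8.10 TPM), and 9 of them reached 100 TPM in both libraries. The highest was Psmd2, a scaffold of the base and docking site for ubiquitin shuttles, at 175 and 207 TPM. Its partner Psmd1 had 116 and 130.04 TPM. Psmd4, a ubiquitin receptor, had 169.9 and 183 TPM. Psmd14, the deubiquitinase of the lid, had 124 and 121 TPM, and Psmd7, the inactive relative with which it pairs, had 156 and 166 TPM. The other lid subunits Psmd6, Psmd8, Psmd11 and Psmd12 had mean levels of 154, 175, 145 and 131 TPM. The lowest were Psmd3, at 96.4 and 90.2 TPM, and Psmd13, at 93.4 and 71.8 TPM. From Psmd13 to Psmd2 the range was 2.31-fold.

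Genes of assembly factors had mostly lower levels than the subunits. The base chaperone Psmd5 had 55.8 and 58.5 TPM, Psmd10 (gankyrin) 27.7 and 27.8 TPM, and Psmd9 21.5 and 21.3 TPM. The core chaperones, which guide alpha ring formation as the pairs Psmg1 with Psmg2 and Psmg3 with Psmg4, ranked in the same order in both libraries. Psmg2 had 71.98 and 71.87 TPM, Psmg1 61.1 and 56.6 TPM, Psmg4 43.4 and 48.9 TPM, and Psmg3 36.6 and 37.2 TPM. The mean levels of these 7 genes lay below that of Psmd13, the lowest subunit of the regulatory particle, but Psmg2 was slightly above Psmd13 in replicate 2. With protein-coding transcripts only, Psmd13 had 41.1 TPM, below Psmg2 (71.9 TPM), Psmg1 (57.7 TPM), Psmd5 (56.97 TPM) and Psmg4 (46.2 TPM). Pomp, the maturation factor of the core particle, which the symbol rule does not take, was an exception among assembly factors, at 219 and 235 TPM.

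The activators that cap the core in place of the regulatory particle differed in level. Psme1 and Psme2, whose products form the mixed ring of the PA28 alpha-beta cap and which like the immune subunits are induced by interferon gamma, had 174 and 165 TPM and 168 and 169 TPM. Their TPM ratio was near 1 (log2 0.01 ± 0.06), but on expected counts, without length correction, it was log2 0.67 ± 0.02. A retained-intron model of Psme2 with 185 bases held 19.1% and 22.7% of its TPM, from 78.7 and 66.5 counts. With protein-coding transcripts only, Psme1 had 152 TPM and Psme2 had 128 TPM. Both interferon-inducible cap genes lay within the range of the regulatory particle subunits, while Psmb8 and Psmb9 were near 1 TPM or below. Psme3, the nuclear PA28 gamma, had 76.3 and 77.04 TPM, which is 2.21-fold below Psme1. Psme4 (PA200), a large single-chain activator, had 17.6 and 12.6 TPM, and Psmf1, the inhibitor PI31, had 22.1 and 24.5 TPM. Psme2b had 1.22 and 0.98 TPM. Its counts, and those of Psme2, were not whole, so some reads were shared with other genes, and the small Psme2b value is uncertain. Psmc3ip matches the symbol rule but encodes a meiotic recombination factor that works with Dmc1 and no proteasome subunit, and it had 20.04 and 17.0 TPM.

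Genes listed as acting with the proteasome were all detected if their names matched. Of 15 partner names listed, which can include several names for a gene, 12 matched a gene by symbol, while Shfm1, Paaf1 and AI314180 did not. An unmatched name therefore need not mean an unmeasured gene. Each matched partner was at 1 TPM or more in both libraries, against 12118 of 21474 protein-coding genes. Partner levels ran from 14.7 TPM for the shuttle factor Ubqln2 to 227 TPM for Pomp (median 73.6 ± 4.91 TPM). The 14 transcriptional regulators and their processing factors ranged from Maff at 2.31 TPM to the segregase Vcp at 375 TPM. The factor Nfe2l1, which drives proteasome genes when the protease is inhibited, had 26.5 and 32.1 TPM, and Nfe2l2 had 34.3 and 36.03 TPM. Of the 6 ubiquitin and ubiquitin-activating genes, the polyubiquitin gene Ubb was the highest at 1933 and 2128 TPM, and the activating enzyme Uba6 the lowest at 11.4 and 12.9 TPM.

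Transcript tables add what the gene totals do not show. The members had 224 annotated transcripts, with 11 members having 1 and 39 having several. Transcripts annotated as protein-coding held 91.8% of the members' TPM in replicate 1 and 91.96% in replicate 2. Models with a retained intron held 5.62% and 5.63%, and models marked as targets of nonsense-mediated decay held 1.84% and 1.77%. The types come from GENCODE M21, and a transcript's share is an estimate of the authors' model from reads that transcripts of a gene have in common.

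Of the 39 members with several transcripts, the leading one held more than 50% of the gene's TPM in both libraries for 32. Over all members this held for 42, which includes those with a single transcript. The same transcript led in both libraries for 35 of the 39. The exceptions were Psmb4, Psmd4, Psmb8 and Psmb9. In Psmd4 the coding transcripts 201 and 202 were almost level, with 49.2% and 46.6% in replicate 1 and 45.6% and 48.4% in replicate 2. In Psmb8 the coding transcripts 201 and 203 held 52.0% and 48.0% in replicate 1 and 22.1% and 77.9% in replicate 2, but from the 30 and 31 counts given above. Psmb9 rests on still fewer counts.

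The protein-coding share was below 90% in both libraries for 6 members. Psma3 had 36.3% and 35.3% of its TPM in coding transcripts. Its leading model was the retained-intron transcript 203, with 31.5% and 33.1%, and the decay-marked models together held 29.7% ± 0.239. In Psmb4 the coding transcript 201 and the retained-intron transcript 202 shared the gene about equally, with 50.1% and 47.5% for the first and 47.7% and 51.2% for the second. Psmd13 had 54.8% and 43.1% in coding transcripts, and Psme2 had 78.1% and 73.3%. Psmd14 lay just under the limit at 87.6% and 88.3%. In Psmc3ip the coding share was 28.7% and 22.4%, and the retained-intron transcript 202 led with 57.2% and 67.1%.

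These shares change how even the core looks. With protein-coding transcripts alone, a setting chosen after the data were seen, the SD of log2 TPM over the 14 core genes was 0.59 and the span from lowest to highest was 4.35-fold. Psmb4 was then the lowest at 107 and 106 TPM, Psma3 fell to 124 and 119 TPM, and Psmb6 remained the highest at 458 and 468 TPM. The other core genes kept more than 90% of their level. The median of the core moved from 280 to 267 TPM.

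**Figure D3:**
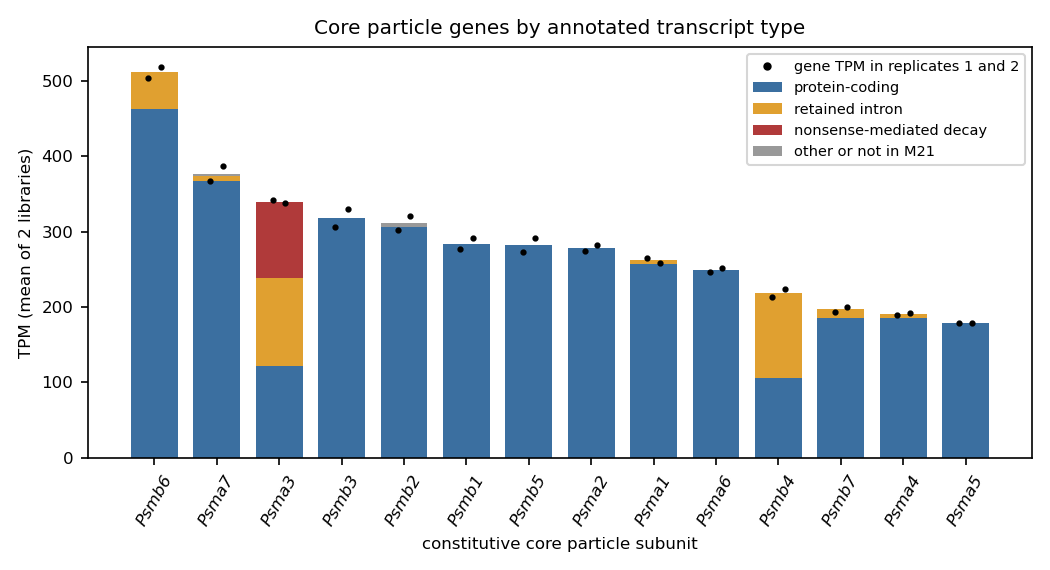
Mean TPM of the 14 constitutive core genes (bars from 0, mean of 2 libraries), divided by annotated transcript type, with the gene totals of both libraries as black points. Psma3 and Psmb4 have the lowest coding portions, 35.8% and 48.8% of the gene, while the other genes have more than 90% of their bars in protein-coding transcripts.

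The libraries gave almost the same proteasome profile. The 48 members whose counts added up to at least 20 were compared by an exact two-sided binomial test on TMM-scaled counts, with Benjamini-Hochberg adjustment over the 16621 genes tested. This test compares 2 libraries of 1 group and covers counting error alone. With a required adjusted p below 0.05 and at least a 2-fold difference, 0 of 48 members were called, against 4.69% of all genes tested (779). The count was also 0 with DESeq2 size factors and with scaling to total counts, and 18 members had an unadjusted p under 0.05, where the background was 46.5% of genes. Of the 48 members, 13 had such a p and were higher in replicate 1, as were 22% of all genes tested (3659 of 16621). The median log2 ratio of replicate 2 over replicate 1 was -0.01 for members, and its median size was 0.05 for members and 0.19 for all genes tested. At mean counts of at least 1000, 37 of 40 members (92.5%) lay within 0.2 of 0, as did 73.8% of 6204 genes.

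Without the fold requirement, 14 of 48 members (29.2%) passed an adjusted p of 0.05, against 39.6% of all genes tested (6577 of 16621). Of the 48 members, 11 passed and were higher in replicate 1, against 18.4% of all genes tested. Another 3 of the 48 passed and were higher in replicate 2, against 21.1% of all genes tested. The largest difference was that of the testis subunit Psma8 (3.86 and 2.18 CPM), with a log2 ratio of -0.81 and an adjusted p of 0.00126 by the exact binomial test. The lid subunit Psmd13 went from 3298 to 1669 counts, a scaled log2 ratio of -0.53 (exact binomial test, adjusted p = 1.28e-33). The activator Psme4 went from 2570 to 1364 counts, or -0.46 (exact binomial test, adjusted p = 1.48e-20). Psmb10 was also higher in replicate 1, at -0.31 (exact binomial test, adjusted p = 0.000925), as were Psmc3ip (-0.27), Psmg1 (-0.16), Psmd3 and Psmd11 (both -0.14), Psme2 (-0.11), Psme1 (-0.09) and Psma1 (-0.07). Higher in replicate 2 were the base subunits Psmc1 (0.21), Psmd2 (0.19) and Psmd1 (0.12). Of the constitutive catalytic subunits none passed, and their log2 ratios were 0.04 for Psmb5, -0.01 for Psmb6 and 0.01 for Psmb7. The summed erythroid markers were also higher in replicate 1 (38832 and 32310 TPM), and their part in these differences was not tested.

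**Figure D4:**
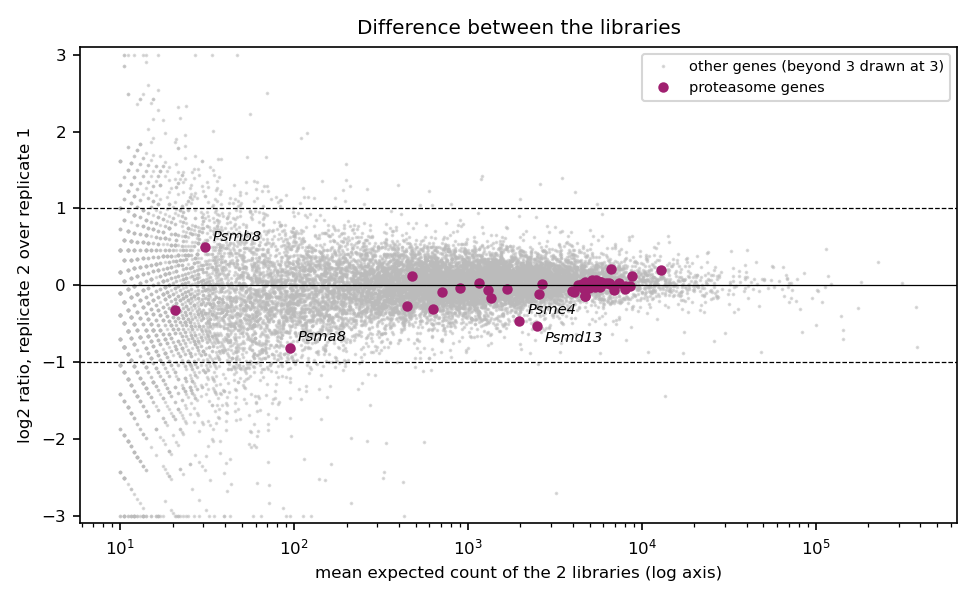
Log2 ratio of replicate 2 over replicate 1 (vertical axis) against the mean expected count of the libraries (horizontal log axis) for 48 members (coloured) and the other genes tested (grey, ratios beyond 3 drawn at 3), with dashed lines at a fold of 2. All members lie between the dashed lines, from -0.81 for Psma8 to 0.50 for Psmb8, and those with high counts gather near 0.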

How the data were processed

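Total RNA of embryonic heart was measured in 2 libraries of 1 group, with replicate numbers from the labels. Per the file headers, the authors' gene and transcript tables hold expected counts (estimated reads, not normalized), TPM, posterior mean TPM and the percent of a gene's TPM in each transcript, and the deposited notes name mm10 and annotation M4. For the aligner, the quantifier and the strand setting, nothing is stated in the labels or headers, so each is not given in the sources used here. Gene names, types and coordinates were taken by identifier from GENCODE M21 (98.0% of genes matched). Members and gene lists were chosen with earlier results of these data known. Every member is accounted for, and of other lists the highest and lowest genes, the neighbours of Psmb8 and Psmb9 and a few genes picked for their role are named. A gene was called detected at 1 TPM or more in both libraries. Between libraries, rounded expected counts were compared by an exact binomial test (scipy 1.17.1) with edgeR 4.0.16 TMM sizes, with 0.5 added to each count for folds. The edgeR quasi-likelihood test needs a second group and does not apply. The binomial test was also run on simulated counts that held counting error alone, and the outcome is not reported here. CPM is relative to counts in mouse genes. Intervals cover counting error only. Alternatives were posterior mean TPM, an added TPM of 1, counts without length correction, other detection levels, other scalings, other filters and leaving out a library. Some genes of the lists are not reported here.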

Additional observations from a re-analysis of the deposited data

How the results depend on the processing

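Of 62 alternative values, 49 stayed within the spread between libraries or within 1.5 times the count, 13 moved and 0 reversed. Except for counts of genes, a value from 1 library alone always lies within that spread when n = 2. Those values could therefore not move and say nothing on robustness. A reversal was defined only for the log2 ratios of the catalytic pairs. The log2 ratio of Psmb5 to Psmb8 (7.81) became 6.95 with 1 added to each TPM. That of Psmb6 to Psmb9 (10.38) became 8.53 with 1 added, 9.35 with posterior mean TPM and 10.84 with protein-coding transcripts only. The immune share of catalytic TPM (2.31%) was 3.37% of expected counts. With TPM rescaled over nuclear protein-coding genes, the medians of the core, ATPases and non-ATPases became 388, 279 and 198 TPM. The core median was 267 TPM with protein-coding transcripts only. The SD of log2 levels over the core (0.41) was 0.30 on expected counts, without length correction, and 0.59 with protein-coding transcripts only. Without the fold threshold, 14 of 48 members and 6577 of 16621 genes were called between the libraries, against 0 and 779 with it. The use of protein-coding transcripts alone was chosen after the data were seen. No paired analysis was possible because the series has 1 group. Depth limits Psmb8, Psmb9, Psmb11 and Psme2b, which rest on 31 counts or fewer per library.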

Other observations

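Reads were scarce on those processed pseudogenes of the constitutive catalytic subunits whose symbols begin like those of the members. Pseudogenes with other names were not searched. Psmb5-ps had 1 count in replicate 1 and 0 in replicate 2, Psmb6-ps had 0 and 1, Psmb6-ps2 had 1 and 3, and Psmb7-ps2 had 0 in both. Of the members, 17 had a count that was not whole in at least 1 library (by more than 0.005), which marks reads that the authors' model divided between genes. Among these were Psma3, Psmb1, Psmb2, Psmb3 and Psmb9, while Psmb5, Psmb6, Psmb7, Psmb8 and Psmb10 had whole counts in both libraries.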
